A study of Mus musculus and Sus scrofa with 18 samples.

Results

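The genes described here are 36 genes of T cells and cytotoxic lymphocytes, followed through the striatum of mice with and without a Huntington's disease (HD) allele. They were chosen by name from a list of T cell receptor, lineage, killing and checkpoint genes, with earlier results of these data known. All 36 members were found among the 55357 genes of the mouse count table. Of these members, 30 passed the filter on low counts that 19463 genes passed in all. The other 6, Gzma, Prf1, Klrk1, Klrc1, Ifng and Tigit, had too few counts to be tested and are given as counts.

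T cells recognise peptide antigens through a T cell receptor whose variable chains are held at the surface by the invariant CD3 chains. The coreceptors CD4 and CD8 bind MHC class II and class I molecules and divide T cells into helper and cytotoxic lineages. Cytotoxic T cells and natural killer cells kill by releasing perforin and granzymes from granules. The healthy brain parenchyma holds few T cells, and most of them lie in the meninges, the choroid plexus and the vessels.

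The HD mice were heterozygous HD 140Q-KI animals, a knock-in line whose mouse Htt exon 1 is replaced by an expanded human exon 1. At 6 months of age, AAV9 vectors were injected into the striatum on both sides, and the tissue was taken 1.5 months later. WT mice received a control gRNA vector without CasRx, an RNA-cutting Cas13d enzyme. Untreated HD mice received CasRx with the control gRNA, and treated HD mice received CasRx with gRNAs against HTT exon 1. CasRx was driven by the CAG promoter, which is active in most cell types, and the gRNAs by U6 promoters. Each group held 3 mice and each library came from 1 mouse. Since both HD groups carried the knock-in allele and CasRx, the effects of the allele and of CasRx cannot be told apart in any comparison with WT mice.

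Libraries held between 27184356 and 32102121 counts. The striatal projection neuron markers summed to 5940 to 7870 CPM (counts scaled to library size) in WT mice, so the markers of the labelled tissue were present. Htt, the targeted gene, had 4995, 5195 and 5462 counts in WT mice, 4125, 4180 and 4404 in untreated mice and 4559, 3961 and 4217 in treated mice. Counts over the whole mouse gene do not show the human exon 1 that the gRNAs target. The 3 WT mice and untreated mouse 1 had 3435 to 5005 counts on 4 Y-linked genes, and the other 5 mice had 0. Sex and group were therefore nearly inseparable, and values within each sex are given where they bear on a result. Untreated mouse 3 stood apart from the rest. It had the highest level of the 9 mice for 35 of the 36 members, all but Cd4, and its level was 5.78 times the mean of the other 5 HD mice at the median (range 0.534 to 18.2).

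Most tested members were called higher in untreated HD mice than in WT mice, and fewer were in treated HD mice. A gene was called a differentially expressed gene (DEG) at a P under 0.05 before adjustment with a change of 2-fold or more in edgeR's quasi-likelihood test. In untreated against WT mice, 25 of the 30 tested members were DEGs that were higher, where 5.57% of all tested genes were. Only Cd4 was a lower DEG, where 2.58% of all genes were. At a Benjamini-Hochberg adjusted p under 0.05, 8 members rose, Cd3e, Cd3g, Trac, Cd8a, Cd6, Cd28, Icos and Nkg7, against 4.58% of all genes, and Cd4 fell, against 6.10%. DESeq2 called 21 members higher, where it called 9.12% of all genes higher, and 1 lower, where it called 8.75% lower. In edgeR without WT mouse 2, none of the 8 rose at an adjusted p under 0.05, where 1.07% of all genes did. Without untreated mouse 1, 16 members did, where 4.09% of all genes did. The median log2 fold change of the 30 members was 3.29, and that of all tested genes was 0.02. Many members passed the filter through HD libraries alone, so a higher level in HD mice is partly built into these counts and medians.

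In treated against WT mice, 14 members were higher DEGs, where 3.84% of all genes were, and Cd4 was the lower DEG, where 1.38% were. No member rose at an adjusted p under 0.05, where 0.904% of all genes did, and Cd4 fell, where 2.78% did. In that comparison edgeR gave an unadjusted P under 0.05 to 15 members, and to 4160 of all 19463 tested genes. DESeq2 called 7 members higher and 1 lower at an adjusted p under 0.05, beside 4.53% and 5.68% of all genes. The median log2 fold change was 2.28 beside 0 for all genes. The 14 became 7 without treated mouse 3, 9 without WT mouse 1 and 8 without WT mouse 3. Of all genes, 3.1%, 4.72% and 3.64% were higher DEGs in those fits. Both comparisons use the same WT mice, so they are not independent of each other.

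**Figure D1:**
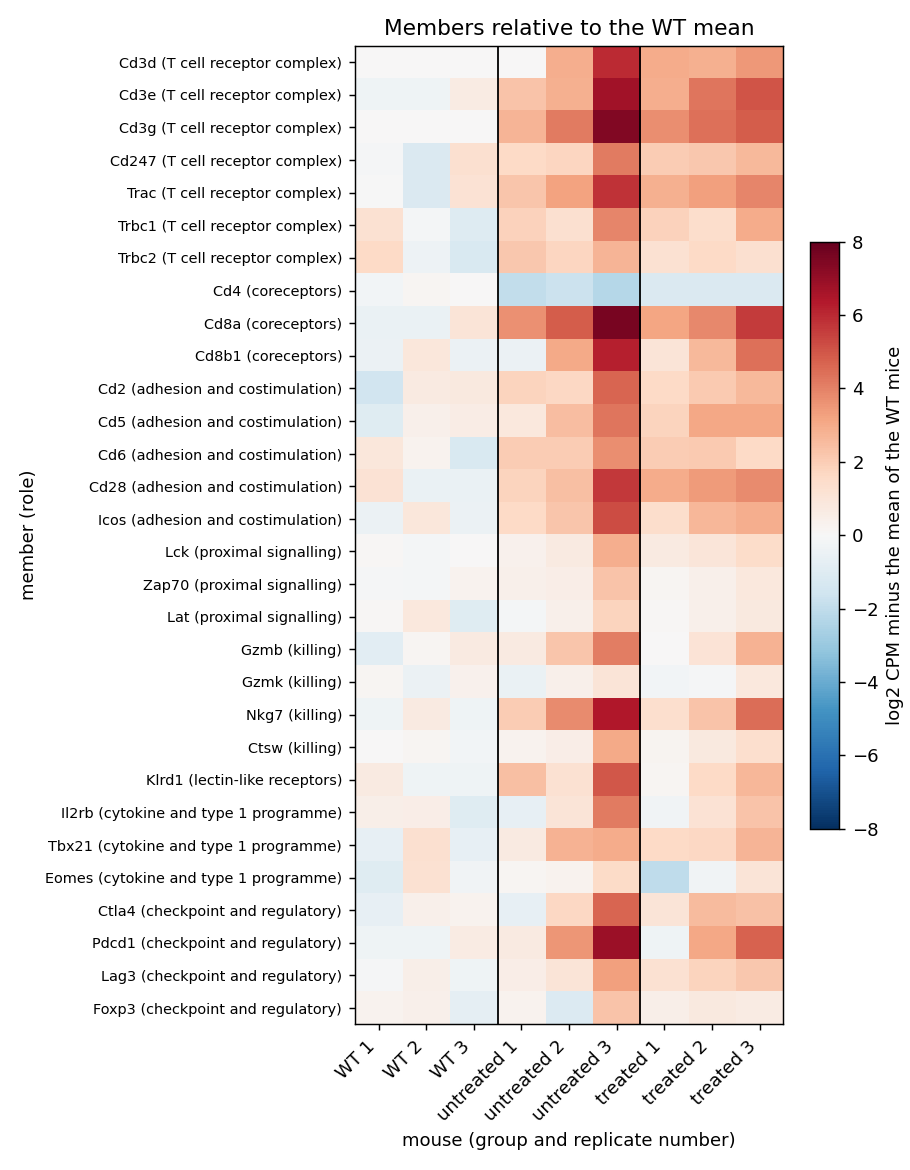
Level of the 30 tested members in each mouse (columns) as log2 CPM minus the mean of the WT mice, with the role of each member in brackets and red above, blue below the WT mean. Untreated mouse 3 is the darkest column, and Cd4 is the row that is blue in all 6 HD mice.

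Every HD mouse lay above every WT mouse for 15 of the 30 tested members, where this held for 8.19% of all tested genes. These 15 were Cd3e, Cd3g, Cd247, Trac, Trbc1, Cd8a, Cd2, Cd5, Cd6, Cd28, Icos, Lck, Nkg7, Ctsw and Lag3. Over all members, tested or not, the number was also 15. For members that passed the filter through HD libraries alone, this order is partly built in. The share of all tested genes is therefore not a like-for-like measure. Cd4 was the single member with every HD mouse below every WT mouse, where 10.5% of all genes were. In bulk tissue, a change in the number of cells of a type and a change in RNA per cell cannot be told apart.

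The CD3 delta, epsilon and gamma chains of the T cell receptor complex had 0 to 2 counts in WT libraries, and every HD mouse had counts of at least 2 of them. Their genes Cd3d, Cd3e and Cd3g lie together on chromosome 9. Cd3d (ENSMUSG00000032094) had 0 counts in each WT mouse, 0, 13 and 125 in untreated mice and 15, 13 and 21 in treated mice. Cd3e (ENSMUSG00000032093) had 0, 0 and 2 counts in WT mice, 10, 16 and 265 in untreated mice and 19, 47 and 83 in treated mice. Cd3g (ENSMUSG00000002033) had 0 in each WT mouse, 11, 34 and 333 in untreated mice and 27, 41 and 58 in treated mice. Cd3e and Cd3g were thus found in all 6 HD mice, and Cd3d in all but untreated mouse 1. Group means were set against a floor of 3 counts per WT library. The mean of the untreated mice was at least 39.7-fold higher for Cd3g and at least 14.5-fold higher for Cd3d. For the mean of the treated mice these bounds were at least 12.5-fold and at least 4.85-fold. Untreated mouse 3 gave most of the untreated counts of each CD3 gene, and the bounds do not hold for every untreated mouse. The summed Cd3e counts of untreated mice were 139 times those of WT mice after scaling (95% exact interval 38.1 to 1150), and those of treated mice 66.5 times (18.1 to 554), intervals that cover counting error only.

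The other chains of the receptor were not absent from WT libraries. Cd247, the CD3 zeta chain on chromosome 1, had 2, 0 and 9 counts in WT mice, 11, 13 and 77 in untreated mice and 18, 19 and 26 in treated mice. Cd247 overlaps Pou2f1, a gene on the opposite strand with 864 to 1332 counts per library, and whether the counting used strand is not given in the sources used here. Trac, the constant region of the alpha chain on chromosome 14, had 2, 0 and 8 counts in WT mice, 18, 39 and 233 in untreated mice and 32, 42 and 66 in treated mice. All HD mice were above all WT mice for both genes.

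The beta chain constant regions lie on chromosome 6 and had counts in every WT mouse. Trbc1 had 15, 5 and 2 counts in WT mice, 26, 18 and 121 in untreated mice and 31, 20 and 64 in treated mice. Trbc2 had 199, 50 and 30 in WT mice, 313, 240 and 469 in untreated mice and 188, 229 and 187 in treated mice. WT mouse 1 overlapped the treated mice for Trbc2. The longest local alignment of their transcripts covered 521 bases with 95.6% identity, so reads may be split between Trbc1 and Trbc2. All 7 genes of the complex were higher DEGs in untreated mice, where 5.57% of all genes were. Cd3e (adjusted p = 0.036), Cd3g (0.0335) and Trac (0.0307) also passed the Benjamini-Hochberg adjustment of edgeR's quasi-likelihood test. In treated mice, 6 of the 7 were higher DEGs, where 3.84% of all genes were, and none passed the adjustment. Trbc2 had a log2 fold change of 0.91 ± 0.60 (SE) there.

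**Figure D2:**
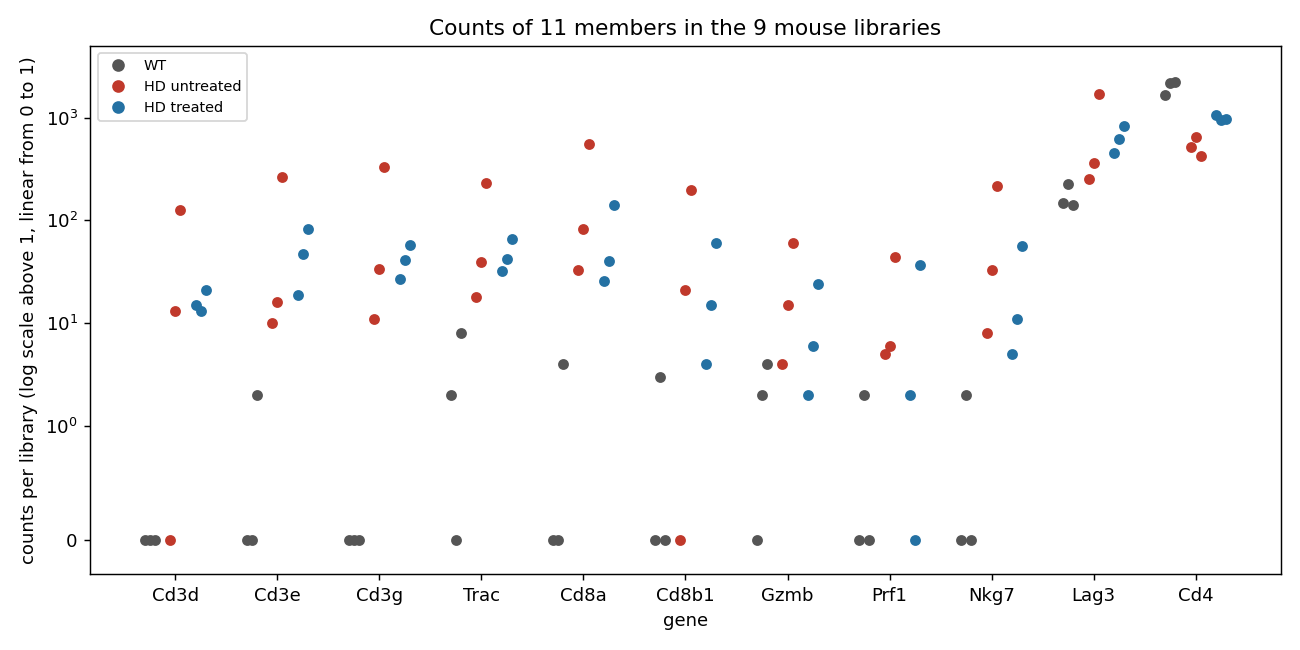
Counts of 11 members in each of the 9 mouse libraries (one point per mouse, logarithmic above 1 count and linear from 0 to 1). Most WT points lie at 0 to 8 counts except for Lag3 and Cd4, and Cd4 is the gene with its WT points on top.

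The CD8 chains mark the cytotoxic lineage, and of the pair Cd8a was called in both comparisons with WT mice. Cd8a (ENSMUSG00000053977, chromosome 6) had 0, 0 and 4 counts in WT mice, 33, 82 and 561 in untreated mice and 26, 40 and 141 in treated mice, so that all HD mice lay above all WT mice. Its mean level was 0.0443 ± 0.0768 CPM in WT mice, 7.66 ± 9.91 in untreated mice and 2.22 ± 2.04 in treated mice (SD, n = 3 each). It rose in untreated mice with a log2 fold change of 7.22 ± 1.53 (SE, adjusted p = 0.0209, edgeR's quasi-likelihood test). In treated mice the log2 fold change was 5.43 ± 1.56, a DEG with an adjusted p of 0.0886 in the same test.

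Cd8b1, which encodes the beta chain of CD8, had 0, 3 and 0 counts in WT mice, 0, 21 and 199 in untreated mice and 4, 15 and 60 in treated mice. Untreated mouse 1, with 33 counts of Cd8a, had no count of Cd8b1, and the groups overlapped there. In counts summed over the group, Cd8b1 was 70.1 times the WT level in untreated mice (95% exact interval 23.7 to 342) and 23.5 times in treated mice (7.75 to 116). These intervals cover counting error only and not the spread between mice. Most of the untreated counts came from mouse 3. It was a DEG in untreated mice (adjusted p = 0.0866, edgeR's quasi-likelihood test) but not without untreated mouse 3, when its log2 fold change went from 5.96 to 3.16. It was not a DEG in treated mice.

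Cd4 moved the other way from every other member called. Cd4 (ENSMUSG00000023274, chromosome 6) had 1658, 2175 and 2212 counts in WT mice, 518, 648 and 426 in untreated mice and 1061, 959 and 976 in treated mice. The 3 groups did not overlap. Mean levels were 72 ± 8.70 CPM in WT mice, 18.1 ± 3.64 in untreated mice and 31.9 ± 0.55 in treated mice (SD, n = 3 each). Cd4 fell by 1.99 on the log2 scale in untreated mice (SE 0.15, adjusted p = 0.000239, edgeR's quasi-likelihood test) and fell by 1.18 in treated mice (SE 0.14, adjusted p = 0.00389).

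Cd4 was thus well measured in WT striatum, and the order of the groups was that of genes of the striatal neurons. Relative to the WT mean, Cd4 stood at 25.2%, 30.2% and 20.1% in untreated mice and at 45.2%, 43.9% and 43.8% in treated mice. Adora2a, the adenosine receptor of indirect pathway projection neurons, stood at 20.7%, 26.9% and 21% and at 38.3%, 39% and 38.4%. Pde10a, a phosphodiesterase of projection neurons, stood at 23.9%, 28.2% and 20.6% and at 36.8%, 34.7% and 35.1%. Drd1, the dopamine receptor of direct pathway neurons, stood at 29.6%, 38.2% and 29.3% and at 48.9%, 46.8% and 50.9%. Of the 10 projection neuron markers, 10 fell in untreated mice and 8 in treated mice at an adjusted p under 0.05. Of all genes, 6.10% and 2.78% did. Which cells gave the Cd4 counts was not tested.

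**Figure D3:**
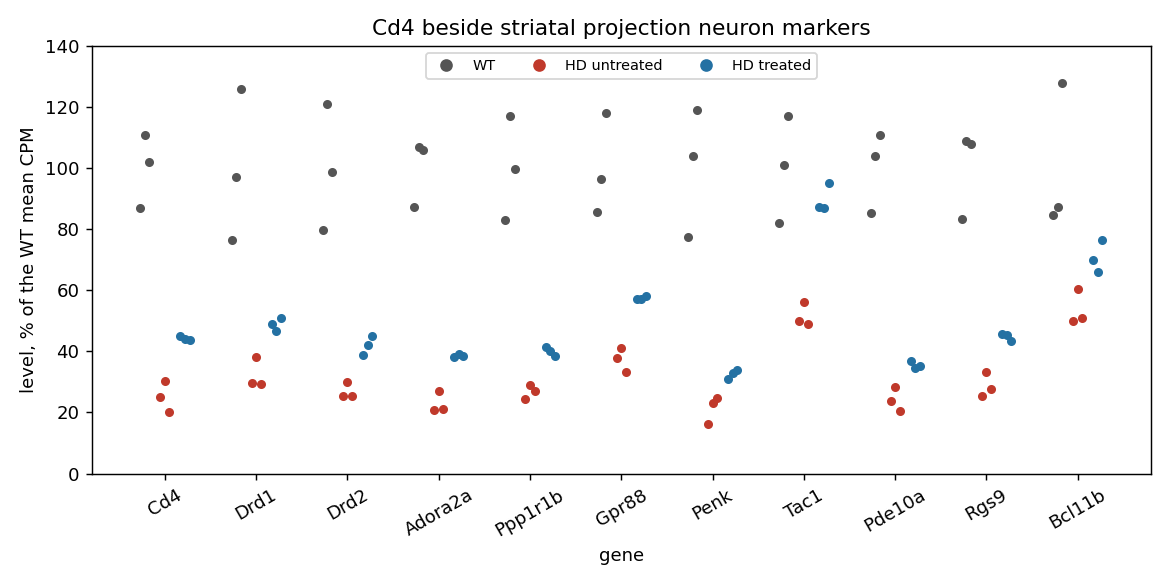
Level of Cd4 and of 10 striatal projection neuron markers in each mouse, as a percentage of the mean CPM of the WT mice (one point per mouse). Cd4 lies at 20.1% to 30.2% in untreated mice and 43.8% to 45.2% in treated mice, beside markers such as Adora2a and Drd2 in the same order of groups.

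Adhesion and costimulatory receptors were higher in the HD mice as a group. All 5 were higher DEGs in untreated mice and 4 of 5 in treated mice, where 5.57% and 3.84% of all genes were. Cd6, a scavenger-type receptor at the T cell contact zone on chromosome 19, had 33, 21 and 7 counts in WT mice, 77, 84 and 268 in untreated mice and 92, 88 and 63 in treated mice. Cd6 rose in untreated mice with a log2 fold change of 2.71 ± 0.62 (SE, adjusted p = 0.0269, edgeR's quasi-likelihood test). Cd28, the main costimulatory receptor of T cells on chromosome 1, had 4, 0 and 0 counts in WT mice, 8, 14 and 145 in untreated mice and 23, 30 and 40 in treated mice. Cd28 had an adjusted p of 0.044 in untreated mice in that test.

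Cd2, Cd5 and Icos, an adhesion receptor, a negative regulator of receptor signalling and an inducible costimulator, had 0 to 8 counts in WT mice. They had 5 to 144 counts in untreated mice and 6 to 35 in treated mice. HD and WT mice did not overlap for any of the 5 genes of this group, although the gap for Cd5 was from 4 counts in WT mouse 3 to 5 in untreated mouse 1. Icos passed the adjustment in untreated mice (adjusted p = 0.0499, edgeR's quasi-likelihood test).

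The kinases and adaptor next to the receptor had a clear level in WT striatum and a smaller difference. Lck, the kinase that phosphorylates the CD3 chains, had 45, 39 and 50 counts in WT mice, 57, 79 and 358 in untreated mice and 88, 95 and 137 in treated mice. Zap70, the kinase recruited to phosphorylated CD3 zeta, had 33, 33 and 49 counts in WT mice, 52, 58 and 196 in untreated mice and 49, 56 and 76 in treated mice. Treated mouse 1 and WT mouse 3 had the same Zap70 count. Lck and Zap70 were DEGs in untreated mice with log2 fold changes of 1.81 ± 0.61 and 1.35 ± 0.49 (SE), and neither was in treated mice. Lat, the adaptor that links the receptor to downstream signals, had 17 to 58 counts in WT mice and 29 to 121 in HD mice and was not called in either.

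The killing genes split into a set nearly absent from WT libraries and a set present in all. Gzma had 0, 0 and 2 counts in WT mice, 0, 0 and 9 in untreated mice and 0, 2 and 8 in treated mice. Gzmb had 0, 2 and 4 in WT mice, 4, 15 and 60 in untreated mice and 2, 6 and 24 in treated mice. Prf1 had 0, 2 and 0 in WT mice, 5, 6 and 44 in untreated mice and 2, 0 and 37 in treated mice. These are granzyme A, granzyme B and perforin, and in treated mice most of their counts came from mouse 3.

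Nkg7, a protein of the cytotoxic granule on chromosome 7, separated the groups more clearly. It had 0, 2 and 0 counts in WT mice, 8, 33 and 217 in untreated mice and 5, 11 and 56 in treated mice. Its summed counts were 123 times the WT level in untreated mice (95% exact interval 33.8 to 1020), with an adjusted p of 0.0396 in edgeR's quasi-likelihood test. The interval covers counting error only and not the spread between mice. Most of those untreated counts came from mouse 3. Gzmk, a granzyme of memory T cells, had 16, 10 and 21 counts in WT mice, 10, 22 and 35 in untreated mice and 15, 15 and 32 in treated mice, so the groups overlapped. Gzmk overlaps Esm1 on the opposite strand, which had 0 to 34 counts. Ctsw, a cathepsin of cytotoxic lymphocytes, had 13, 15 and 12 counts in WT mice, 17, 21 and 129 in untreated mice and 18, 27 and 40 in treated mice, and overlaps Fibp on the opposite strand, which had 695 to 994. In untreated mice Gzmb, Nkg7 and Ctsw were DEGs among the 4 tested genes of this group, and in treated mice only Nkg7 was. Of all genes, 5.57% and 3.84% were higher DEGs in those comparisons.

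The 250 bases before the start of Nkg7, Gzmb and Prf1 are shown because these granule genes were high in the same HD mice. The capitals mark matches on either strand to GGTGTGA (T-box motif) and TGTGGT (Runx motif). Positions are RefSeq's on build GRCm38.p6.
Nkg7, chr7:43436888-43437137, plus strand: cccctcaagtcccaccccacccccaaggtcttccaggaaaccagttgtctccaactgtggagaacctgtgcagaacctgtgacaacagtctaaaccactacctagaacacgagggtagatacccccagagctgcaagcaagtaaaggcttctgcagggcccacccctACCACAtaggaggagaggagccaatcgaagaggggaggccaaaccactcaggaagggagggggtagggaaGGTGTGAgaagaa
Gzmb, chr14:56262335-56262584, minus strand: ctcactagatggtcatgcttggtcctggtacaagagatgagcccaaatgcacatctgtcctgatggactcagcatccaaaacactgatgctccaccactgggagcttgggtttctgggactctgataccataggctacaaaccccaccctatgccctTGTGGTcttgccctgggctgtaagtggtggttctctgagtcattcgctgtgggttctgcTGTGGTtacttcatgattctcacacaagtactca
Prf1, chr10:61297586-61297835, plus strand: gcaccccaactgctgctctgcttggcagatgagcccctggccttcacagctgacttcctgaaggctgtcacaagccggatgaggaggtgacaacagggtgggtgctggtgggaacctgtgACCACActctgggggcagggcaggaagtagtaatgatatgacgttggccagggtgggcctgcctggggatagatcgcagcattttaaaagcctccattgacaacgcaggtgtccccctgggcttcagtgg
Of the 36 members, 23 had a promoter in the RefSeq table. The Runx motif was found in 8 of them (34.8%) and in 14.2% of 27025 promoters of the same length. The T-box motif was found in 2 (8.7%) against 3.31%. A match is a run of letters and not evidence of binding.

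The lectin-like receptors of cytotoxic lymphocytes were at 0 to 2 counts in every WT library. Klrd1, which encodes CD94, the partner of the NKG2 chains, had 2, 0 and 0 counts in WT mice, 11, 4 and 78 in untreated mice and 1, 6 and 15 in treated mice. It was a DEG in untreated mice with a log2 fold change of 5.23 ± 1.54 (SE). Klrk1, the activating receptor NKG2D, had no count in WT mice, at most 102 in untreated mice and at most 12 in treated mice, and was at 0 in the first mouse of either HD group. Klrc1, the NKG2A chain, had no count in WT mice, 4 to 27 in untreated mice and 0 to 8 in treated mice. Klrc1 and Klrc2 share a stretch of 179 bases with 98.3% identity, so reads could be split between them.

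Genes of cytokine response and the type 1 programme were less evenly spread over the HD mice. Il2rb, the shared beta chain of the interleukin-2 and interleukin-15 receptors, had 32, 34 and 12 counts in WT mice, 15, 55 and 485 in untreated mice and 23, 60 and 138 in treated mice. Its lowest HD mice lay within the WT range. Tbx21, the type 1 master regulator T-bet, had 0, 5 and 0 counts in WT mice, 3, 19 and 22 in untreated mice and 8, 8 and 19 in treated mice. Both were DEGs in untreated mice, and Tbx21 was one in treated mice as well. Ifng, interferon-gamma, had no count in WT mice, at most 20 in untreated mice and 2 to 3 in treated mice. Eomes, a related T-box factor of memory and natural killer cells that some neurons also express, had 2 to 16 counts in WT mice and 0 to 22 in HD mice and was not called.

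Of the 4 tested checkpoint and regulatory genes, 3 were higher DEGs in untreated mice, Lag3, Pdcd1 and Ctla4, and only Lag3 was in treated mice. The shares of all genes were 5.57% and 3.84%. Lag3, an inhibitory receptor that binds MHC class II, had 147, 228 and 140 counts in WT mice, 251, 362 and 1712 in untreated mice and 454, 616 and 835 in treated mice. All HD mice lay above all WT mice, and Lag3 was a DEG in both comparisons with log2 fold changes of 2.09 ± 0.65 and 1.72 ± 0.64 (SE). Lag3 is also transcribed by microglia and neurons, and it had counts in every WT mouse. Pdcd1, which encodes PD-1, had 0, 0 and 2 counts in WT mice, 2, 27 and 282 in untreated mice and 0, 20 and 67 in treated mice. The first mouse of either HD group lay within the WT range for Pdcd1, which was a DEG in untreated mice alone.

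Ctla4 and Tigit, inhibitory receptors of activated and regulatory T cells, had 0 to 3 counts in WT mice, 0 to 87 in untreated mice and 4 to 23 in treated mice. Foxp3, the master factor of regulatory T cells on the X chromosome, had 6 to 14 counts in WT mice, 4 to 59 in untreated mice and 17 to 20 in treated mice and was not called. Foxp3 overlaps Ppp1r3f, Ccdc22 and Gm36995 on the opposite strand, which had 322 to 1140 counts, and without strand their reads cannot be told apart. It also overlaps Flicr on its own strand, which had 12 to 57 counts, and strand would not separate these.

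**Figure D4:**
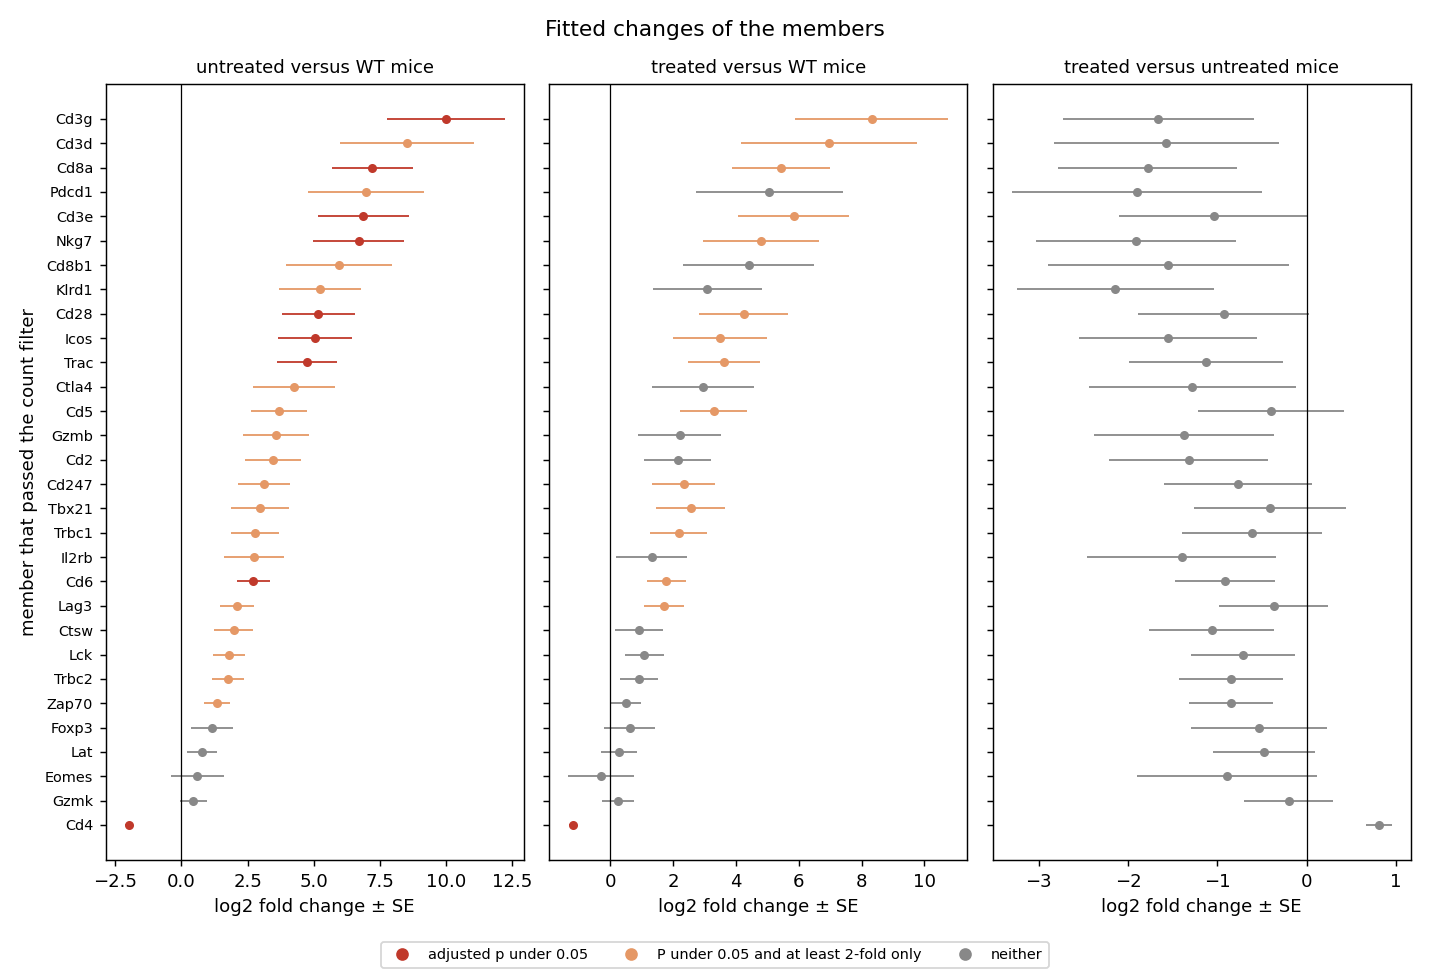
Fitted log2 fold change with its standard error for the 30 tested members in the 3 comparisons (each panel has its own scale). Most points lie right of 0 against WT mice and left of 0 in treated against untreated mice, where no member is coloured as called. The largest values, for Cd3g and Cd3d, rest on WT counts of 0 and are not bounds.

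The comparison of treated with untreated HD mice bears on the HTT gRNAs. None of the 30 members was a DEG, where 0.360% of all genes were higher and 0.411% were lower DEGs. At an adjusted p under 0.05, edgeR called 0 genes (0% of all tested), with 1071 genes at an unadjusted P under 0.05, and DESeq2 called 48. The median log2 fold change of the members was -0.98, and 1 of 30 was above 0, Cd4. Among members, only Cd4 had an unadjusted P under 0.05, with a log2 fold change of 0.81 ± 0.14 (SE, adjusted p = 0.552, edgeR's quasi-likelihood test). DESeq2 gave Cd4 an adjusted p of 0.000329. Every treated mouse lay above every untreated mouse for Cd4, where this held for 6.92% of all genes. Trbc2 was the single tested member with every treated mouse below every untreated mouse, at 5.76, 7.54 and 6.04 CPM against 11, 8.06 and 15.9, where this held for 8.83% of all genes. The next smallest P values belonged to Klrd1, with -2.14 ± 1.10 (adjusted p = 0.901), and Cd8a, with -1.78 ± 1.00 (adjusted p = 0.923), in the same edgeR test.

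The negative median rested on untreated mouse 3. Without it, the median became 0.62 and Cd3e was a higher DEG in treated mice, with a log2 fold change of 1.84 ± 0.71 (SE), where 0.928% of all genes were. Without untreated mouse 1, which leaves the 5 HD mice with no Y-linked counts, the median was -1.47 and 6 members were lower DEGs in treated mice, Cd3d, Cd3g, Cd8a, Zap70, Nkg7 and Klrk1, where 0.671% of all genes were. In that fit no adjusted p was under 0.05. Without treated mouse 3, 4 were lower DEGs, Cd8a, Gzmb, Nkg7 and Klrd1, where 0.528% of all genes were. In summed counts of Cd3d, Cd3e and Cd3g, untreated mouse 1 had the fewest of the HD mice and untreated mouse 3 the most.

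The differences from WT mice also depended on untreated mouse 3, in both directions. Without it, 12 members were higher DEGs in untreated against WT mice, where 3.7% of all genes were, and the median was 1.77. Of the 13 members then called in either direction, all were also called with every mouse. Cd3g (log2 fold change 7.51 ± 1.20, adjusted p = 0.0203), Cd8a (5.25 ± 1.12, adjusted p = 0.0357) and Cd4 were those past the adjustment in edgeR's quasi-likelihood test. In treated against WT mice, whose own libraries stay the same, leaving it out narrowed the shared spread. Then 20 members were higher DEGs, where 4.2% of all genes were, and 9 rose at an adjusted p under 0.05, where 3.45% did. The 9 were Cd3e, Cd3g, Trac, Cd8a, Cd5, Cd6, Cd28, Lck and Lag3. Untreated mouse 1, the one HD mouse with Y-linked counts like the WT mice, had 11 Cd3g, 10 Cd3e, 18 Trac and 33 Cd8a counts, above the 0 to 8 of the WT mice. In the same library Cd3d, Cd8b1, Ctla4, Klrk1, Gzma and Ifng were at 0. Its counts of Il2rb, Lat, Gzmk, Pdcd1, Gzmb, Tbx21, Eomes, Tigit and Foxp3 lay within the WT range. With the Y-linked share as a covariate, which rests the contrast with WT mice on that mouse, 3 members were higher DEGs in untreated mice and 0 in treated mice, where 2.98% and 1.41% of all genes were.

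Summed over the 31 members that remain without Cd4, Lag3, Cd247, Ctsw and Eomes, the level was 16.1, 10.9 and 7.64 CPM in WT mice. Some of the 5 are known from other brain cells and others overlap another gene, as do Foxp3 and Gzmk, which were kept. The sum was 26, 33.9 and 181 in untreated mice and 23.3, 33.6 and 52.4 in treated mice. Every HD mouse lay above every WT mouse, and the 2 HD groups overlapped. Trbc2 made up much of the WT sum, with 199 of 425 counts in WT mouse 1.

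Markers of other cell types differed in how they varied over the mice. The 14 B and plasma cell markers summed to 3.99 to 6.46 CPM in WT mice. They summed to 13.2 to 120 in untreated mice and 68.2 to 132 in treated mice. Jchain gave most of the sum in each HD mouse, such as 3477 of 3993 counts in treated mouse 2. Of the 8 tested, 6 were higher DEGs in untreated mice and 7 in treated mice, where 5.57% and 3.84% of all genes were. Derl3 was called in neither. The 10 microglia markers summed to 354 to 384 CPM in WT mice, 398 to 738 in untreated mice and 497 to 581 in treated mice, with untreated mouse 3 highest. No microglia marker was a DEG, and 1 rose in treated mice at an adjusted p under 0.05, where 0.904% of all genes did. The 10 monocyte and macrophage markers summed to 39.1 to 46.6 CPM in WT mice, 28.1 to 55.3 in untreated mice and 41.2 to 50.7 in treated mice. Vcan was the largest part of the sum in every mouse, such as 822 of 1034 counts in WT mouse 1. The sum therefore says little of the other markers. Of the 9 tested, 3 were higher DEGs in untreated mice, Ly6c2, Plac8 and Ms4a7, and 2 in treated mice, Ly6c2 and Plac8. Of all genes, 5.57% and 3.84% were. Ly6c2, a marker of inflammatory monocytes, passed the adjustment in both (adjusted p = 0.0228 and 0.0353, edgeR's quasi-likelihood test). It had 7, 13 and 0 counts in WT mice, 43, 86 and 322 in untreated mice and 125, 165 and 245 in treated mice. Cd163 and Vcan fell in untreated mice, by 0.85 and 0.46 on the log2 scale (adjusted p = 0.0201 and 0.0353, same test). The median log2 fold change of the 9 was 0.08 in untreated and 0.38 in treated mice. The 8 neutrophil markers reached at most 0.432 CPM in any mouse. The 8 natural killer cell markers reached 1.94 CPM in untreated mouse 3 and at most 0.485 in the others, and the defining marker Ncr1 was at 0 in all mice but untreated mouse 3, with 6 counts.

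Markers of blood and choroid plexus followed another order. The 5 red blood cell markers summed to 107 to 190 CPM in WT mice, 3.09 to 67.3 in untreated mice and 2.77 to 51.5 in treated mice. This sum was higher in each WT mouse than in any HD mouse. None was a DEG in untreated mice, and all 5 were lower DEGs in treated mice, where 1.38% of all genes were. The 10 choroid plexus markers summed to 306 to 5440 CPM in WT mice, 268 to 486 in untreated mice and 311 to 2110 in treated mice. Untreated mouse 3 had the lowest value of all. All 10 were lower DEGs in untreated mice, where 2.58% of all genes were, and none was a DEG in treated against WT mice. The part of the other cell types in the levels of the members was not tested.

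**Figure D5:**
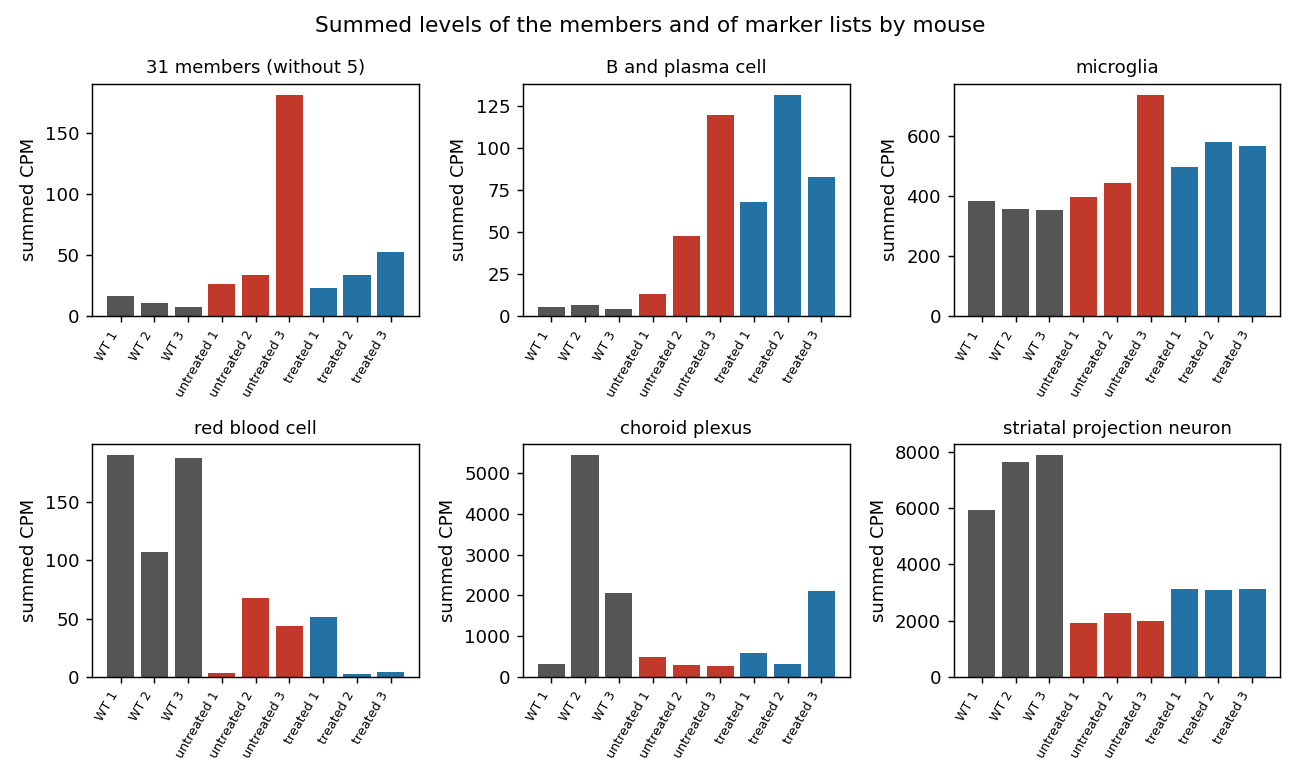
Summed CPM per mouse of 31 members and of 5 marker lists (one bar per mouse, each panel with its own axis from 0). The members peak at 181 CPM in untreated mouse 3, and red blood cell markers are highest in WT mice. B and plasma cell markers, mostly Jchain in the HD mice, peak at 132 CPM in a treated mouse.

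A list of 65 other T cell and lymphocyte genes was read beside the members. Of the 45 that were tested, 25 were higher and 1 was a lower DEG in untreated against WT mice, where 5.57% and 2.58% of all genes were. At an adjusted p under 0.05, 14 rose and 2 fell, where 4.58% and 6.10% of all genes did. In treated against WT mice 20 were higher DEGs, where 3.84% of all genes were. There 1 rose at an adjusted p under 0.05, where 0.904% of all genes did. In treated against untreated mice 2 were lower DEGs, Cd7 and Cd96, where 0.411% of all genes were. Of the 6 with the smallest P in untreated mice, 3 had a clear level in WT striatum and are also known outside T cells. Bcl11b, also a factor of striatal projection neurons, fell by 0.90 on the log2 scale (SE 0.15, adjusted p = 0.00935), and Tcf7, a factor of naive T cells and Wnt signalling, fell by 1.15 (SE 0.22, adjusted p = 0.0153). Tox, a factor of exhausted T cells and of neurons, rose by 0.94 (SE 0.18, adjusted p = 0.0134), all in edgeR's quasi-likelihood test.

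The other 3 were nearly absent from WT libraries. Cd96, a receptor of T and natural killer cells, had 0 counts in each WT mouse, 12, 10 and 39 in untreated mice and 4, 4 and 9 in treated mice. Il7r, the interleukin-7 receptor of memory T cells, had 2, 0 and 5 counts in WT mice, 20, 34 and 169 in untreated mice and 49, 70 and 36 in treated mice. Cst7, cystatin F, which cytotoxic lymphocytes and activated microglia make, had 6, 0 and 3 counts in WT mice, 41, 82 and 537 in untreated mice and 71, 156 and 333 in treated mice. All HD mice lay above all WT mice for each of them.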

How the data were processed

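Striatal RNA of 9 mice was primed with oligo-dT and sequenced from 3′ ends. The authors deposited raw counts per Ensembl gene, without normalization. The methods of the study name STAR, whereas the submitters' processing notes name Trimmomatic 0.39, FastQC 0.11.9, HISAT2 2.2.1 and featureCounts 2.0.1. The mouse genome build, the strand setting and whether reads were collapsed by their identifiers are not given in the sources used here. Uncollapsed PCR copies would make low counts less precise than counting intervals show. Among the members, counts of 2 were far more common than counts of 1, so low counts may not be independent. Of the gene IDs, 3276 had no symbol in GENCODE M21. The pig counts were not used here, since their IDs are not paired with names.

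The counts were tested with edgeR 4.0.16 under R 4.3.3 (filterByExpr, TMM, glmQLFit and glmQLFTest on all 9 libraries, 6 residual degrees of freedom). A DEG had P under 0.05 and at least a 2-fold change, and adjusted p-values are Benjamini-Hochberg over all tested genes. Standard errors were obtained by dividing each log2 fold change by the root of its F value. CPM used TMM-scaled library sizes, and log2 CPM a prior count of 2. Folds against 0 WT counts used a floor of 3 counts per library. The fit was tested on simulated data. Python 3.11.15 and matplotlib 3.10.9 made the figures.

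The members and gene lists were chosen with earlier results of these data known. Counts per mouse are given for the receptor complex, the coreceptors, the killing genes and the 2 members with the smallest P against WT in each other role. Statistics are given for the 3 members with the smallest P in each comparison, and the 6 other T cell genes with the smallest P are named. Further members are named for the contrasts shown. Same-numbered mice are different animals. Alternatives were library sizes without TMM, DESeq2 1.42.0, other filters and thresholds, a fit restricted to the groups compared, a replicate block, a Y-linked covariate and each mouse left out. Leaving out a mouse at an adjusted p under 0.05 was added after seeing the data. A promoter motif that was also searched is not reported here.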

Additional observations from a re-analysis of the deposited data

How the results depend on the processing

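No TMM scaling, DESeq2, no filter, or at least 10 counts in 3 libraries moved no count of DEGs among the members by over 1.5 times and turned no member. At an adjusted p under 0.05, DESeq2 called 21 members higher in untreated and 7 in treated against WT mice, where edgeR called 8 and 0. Of all genes, DESeq2 called 9.12% and 4.53% higher, and edgeR 4.58% and 0.904%. In untreated against WT mice, the 25 higher members became 14 in a fit of only the compared groups and 12 at P under 0.01. They became 8 at an adjusted p under 0.05, and 3 with the Y-linked covariate, where the median was 1.48. Over all genes the shares were 4.51%, 3.11%, 4.58% and 2.98% in that order. In treated against WT mice, the 14 became 3 at P under 0.01, 0 at an adjusted p, and 0 with that covariate, where the median was -0.04. Here the shares over all genes were 1.85%, 0.904% and 1.41%. That covariate gave 7 lower members in treated against untreated mice, where 0.596% of all genes were lower DEGs. The cause was not tested. It also turned, in untreated mice, Cd8b1 (-4.47), Lat (-0.25), Gzmk (-0.38), Il2rb (-0.32), Eomes (-0.20) and Ctla4 (-1.55), and, in treated mice, Cd3d (-0.67), Cd8b1 (-6.61), Lck (-0.50), Zap70 (-0.51), Lat (-1.14), Gzmb (-0.44), Gzmk (-0.87), Ctsw (-0.90), Il2rb (-2.28), Tbx21 (-0.02), Ctla4 (-3.40), Pdcd1 (-0.09), Lag3 (-0.06) and Foxp3 (-0.53).

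With each mouse left out in turn, higher members numbered 12 to 28 in untreated mice (median 1.77 to 4.20). In treated mice they numbered 7 (without treated mouse 3) to 20 (median 1.97 to 2.78). Of all genes, 3.7% were higher in untreated mice without untreated mouse 3 (12 members) and 6.19% without untreated mouse 1 (28 members). In treated mice the shares were 3.1% without treated mouse 3 (7 members) and 4.2% without untreated mouse 3 (20 members). Without WT mouse 1 or 3 there were 9 and 8 in treated mice, where 4.72% and 3.64% of all genes were higher DEGs. In treated against untreated mice 0 to 6 were lower and 0 to 1 higher (median -1.47 to 0.62). In the fits with 6 and 1, 0.671% of all genes were lower and 0.928% higher. At an adjusted p, 0 (without WT mouse 2) to 16 (without untreated mouse 1) rose in untreated mice and 0 to 9 in treated mice. Of all genes, 1.07% and 4.09% rose in the fits with 0 and 16, and 3.45% in that with 9. Members without overlap numbered 15 to 19, beside 8.19% of all tested genes with every mouse kept. The filter partly builds in this order for members with few WT counts. Members that turned were, in untreated mice without mouse 3, Lat (range -0.03 to 1.33), Gzmk (-0.03 to 0.78), Eomes (-0.10 to 1.74) and Foxp3 (-0.39 to 1.65), and, in treated mice, Eomes (-1.73 to 0.87, and 0.30 without treated mouse 1), Lat (-0.06 without WT mouse 3, to 0.86) and Gzmk (-0.22 without treated mouse 3, to 0.45). Cd8a ranged from -2.84 to 0.18 in treated against untreated mice. Summed over all 36 members, where Cd4 and Lag3 dominate, the level was 84.9, 100 and 86.7 CPM in WT mice, 54.2, 69.2 and 261 in untreated mice and 70.8, 87.2 and 114 in treated mice. Without Cd4, Lag3, Cd247, Ctsw and Eomes it was 16.1, 10.9 and 7.64 in WT mice and 23.3, 33.6 and 52.4 in treated mice.

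The mice share only a replicate number: deviations of same-numbered mice correlated between -0.0805 and 0.236. With a replicate block, 24 members were higher in untreated and 19 in treated against WT mice, and 4 were lower in treated against untreated mice. Over all genes the shares were 5.45%, 4.05% and 0.442%. With counts this low in WT mice, a fold above the floor gives no size for the change.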

Other observations

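Counts of killing and CD8 genes relative to CD3 counts varied over the HD mice. Counted against the summed counts of Cd3d, Cd3e and Cd3g in the same library, the killing genes Gzma, Gzmb, Prf1 and Nkg7 together gave 81 counts per 100 CD3 counts in untreated mouse 1 (95% exact interval 40.1 to 161), 85.7 in untreated mouse 2 (58.5 to 125) and 45.6 in untreated mouse 3 (39.9 to 52.1). They gave 14.8 in treated mouse 1 (6.44 to 29.9), 18.8 in treated mouse 2 (10.9 to 30.9) and 77.2 in treated mouse 3 (60.6 to 98). The CD8 chains Cd8a and Cd8b1 gave 157, 163 and 105 per 100 CD3 counts in untreated mice and 49.2, 54.5 and 124 in treated mice. Treated mice 1 and 2 were thus the lowest on both measures, and treated mouse 3 lay among the untreated mice. Pdcd1 gave 9.52, 42.9 and 39 in untreated mice and 0, 19.8 and 41.4 in treated mice. Icos, at 28.6, 17.5 and 13.8 in untreated mice and 9.84, 15.8 and 12.3 in treated mice, had intervals that all overlapped. These ratios were chosen after the values were seen and were not tested between groups. Their intervals cover counting error only and may be too narrow, since low counts may not be independent.

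Variable segments of the T cell receptor were read from the same libraries. They lie far from the 3′ ends from which the libraries were sequenced. Their numbers therefore do not measure the diversity of receptors. Of 144 listed segments, 10, 9 and 13 had a count in WT mice, 13, 25 and 50 in untreated mice and 20, 24 and 28 in treated mice. In all, 64 segments had no count in any library, and 110 had at most 3 in each. The WT mice had counts of segments but none of Cd3d or Cd3g. Whether the counts came from rearranged receptors was not tested. Of the beta chain segments, 0, 0 and 1 had a count in WT mice, 1, 4 and 12 in untreated mice and 5, 5 and 8 in treated mice. The filter on low counts passed 2 segments, and both were lower DEGs in untreated and in treated against WT mice, unlike the constant region Trac. Of all genes, 2.58% and 1.38% were lower DEGs.

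Among effector genes of the wider T cell list, named after their values were seen, Ccl5, a chemokine of cytotoxic T cells, had 5, 4 and 0 counts in WT mice, 43, 129 and 942 in untreated mice and 39, 100 and 276 in treated mice. Cxcr6, a receptor of tissue-resident T cells, had 2, 0 and 2 counts, then 14, 17 and 203, then 11, 24 and 44 in the same groups. Il17a had no count in any of the 9 libraries, and Il10 had 6 counts in untreated mouse 3 and none elsewhere. Jchain, which joins secreted IgA and IgM, had 14, 6 and 16 counts in WT mice, 211, 1118 and 2778 in untreated mice and 1781, 3477 and 2079 in treated mice, so the order of the HD mice differed from that of Cd3g.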
